A study of Glycine max with 20 samples.

Results

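Ribosome footprint (FP) libraries of soybean seed coats at the mid stage of seed growth were compared with control RNA (CT) libraries of the same stage, called SC100 for a seed weight of 100 to 200 mg. Members were the 2 FP and the 2 CT libraries labelled seed coat at this weight, 4 of the 18 libraries with count tables. Within them, a gene model was tested when its counts summed to 10 or more over the 4 libraries. This left 49157 of 88515 models, of which 26768 of the 55912 primary models (the first transcript of each gene) are described here. The plants were soybean cultivar Williams grown in a greenhouse, and no treatment or mutation separated the groups. The SC100 FP libraries hold the fragments that ribosomes protected from nuclease, the SC100 CT libraries hold fragments of total RNA, and both replicates of each are labelled as biological. The early seed coat stage, SC25 (seeds of 25 to 50 mg, 2 FP and 2 CT libraries), was used for comparison only. Nothing in the labels says how many plants gave each replicate, so the p-values refer to these libraries only.

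The seed coat is the maternal tissue around the embryo. It unloads sugars and amino acids for the embryo, builds thickened walls and phenolic compounds, and in many legumes makes flavonoid pigments. Ribosomes shield the stretch of mRNA on which they sit, so that the footprints of a transcript relative to its RNA measure how densely ribosomes occupy it. Short upstream reading frames, stem structures at the start of an mRNA and storage away from ribosomes are known ways to lower that density, whereas transcripts in heavy use carry many ribosomes.

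The total count was 11648421 and 11561857 in SC100 FP replicates 1 and 2, and 10599448 and 8897036 in SC100 CT replicates 1 and 2. A small number of models took most of it, since the 885 most abundant models (1% of all) held 92.8% and 95.7% of the FP counts and 86.2% and 85.0% of the CT counts. SC100 CT replicate 1 stood apart from the other libraries. It had 0 counts on 52.9% of all models, against 35.8% and 36.2% in the FP libraries, 23.3% in CT replicate 2 and 19.7% to 49.6% in the other 17 libraries. It had few low values, with 5.11% of models at 1 to 4 counts, against 24.3% and 33.1% in the FP libraries and 24.7% in CT replicate 2. Of the 13051 models on which CT replicate 2 had 20 to 49 counts, CT replicate 1 was at 0 on 5.95%, and FP replicates 1 and 2 were at 0 on 0.736% and 0.253%. The count of calls over all models and those of the main classes are therefore also given without CT replicate 1. On the log2(count + 1) scale the replicates correlated across all models with r = 0.878 for FP and r = 0.798 for CT, a description over genes that are not independent.

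**Figure D1:**
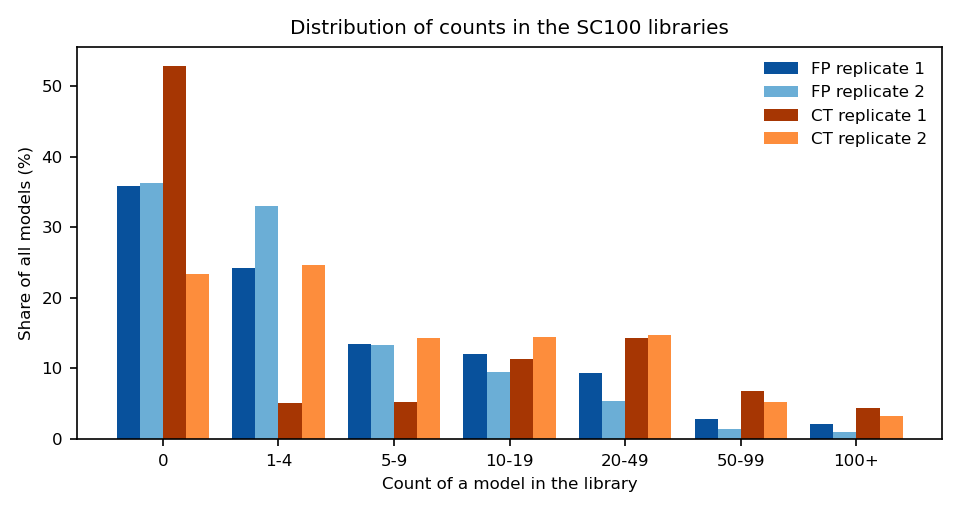
Share of the 88515 models (%, vertical axis) by their count in the library (horizontal axis) for the 2 SC100 FP (blue) and 2 SC100 CT (orange) libraries. CT replicate 1 has the most models at 0 (52.9%) and the fewest at 1 to 4 counts (5.11%).

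The labelled tissue was checked against its markers in the CT libraries. The 183 models of MADS-box factors, several of which mark ovule and seed coat identity in other plants, summed to 220.0 and 215 RPKM in SC100 CT, against 7.01 and 7.42 RPKM in CT of cotyledons from seeds of the same weight. RPKM is the count per kilobase of model, scaled to the total count of the library. The 60 flavonoid enzyme models summed to 231 and 465 RPKM in SC100 CT and 23.8 and 24.8 RPKM in cotyledon CT. The 19 storage protein models of the study, products of the cotyledon, summed to 291.7 and 381 RPKM in SC100 CT and 17030 and 13050 RPKM in cotyledon CT, with 1 and 0 of the 19 at 0 in SC100 CT. Cotyledon markers were therefore detectable in the seed coat libraries at a low level. Their part in any result was not tested.

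A pair of measures of ribosome occupancy are used. The translation efficiency (TE) divides the FP RPKM, averaged over both replicates, by that of CT, with values under 0.1 RPKM set to 0.1. The relative log2 ratio is the fitted log2 ratio of FP to CT after TMM scaling, minus its median over the 26768 models (0.12), so that 0 is the middle of all models and 1 is 2 times the occupancy of the middle model. The median TE was 0.411 over all tested models and 0.449 over the 7693 models (28.7%) with 10 or more counts in each of the 4 libraries. In those 7693 models the median TE was 0.577 in replicate pair 1 (FP replicate 1 over CT replicate 1) and 0.323 in pair 2, so that levels of TE differed between the pairs for the middle model itself. The relative ratio of each pair was set to a median of 0 for this reason.

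Agreement between the replicate pairs depended on depth. Over all 26768 models the relative ratio had the same sign in both pairs for 56.3%, and the ratios of pair 1 and pair 2 correlated with r = 0.05. Over the 7693 models with 10 or more counts in each library the same sign was seen in 62.7% (r = 0.37). Over the 1063 models whose lowest count was 50 to 199 it was 76.0% (r = 0.64), and over the 252 with a lowest count of 200 or more it was 85.3% (r = 0.79). The correlations are across models and are given as descriptions. At the depth of most models, then, the sign of the ratio differed between the pairs in a large share of cases. Most single models below are therefore given with their values in each library beside the fitted ones.

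**Figure D2:**
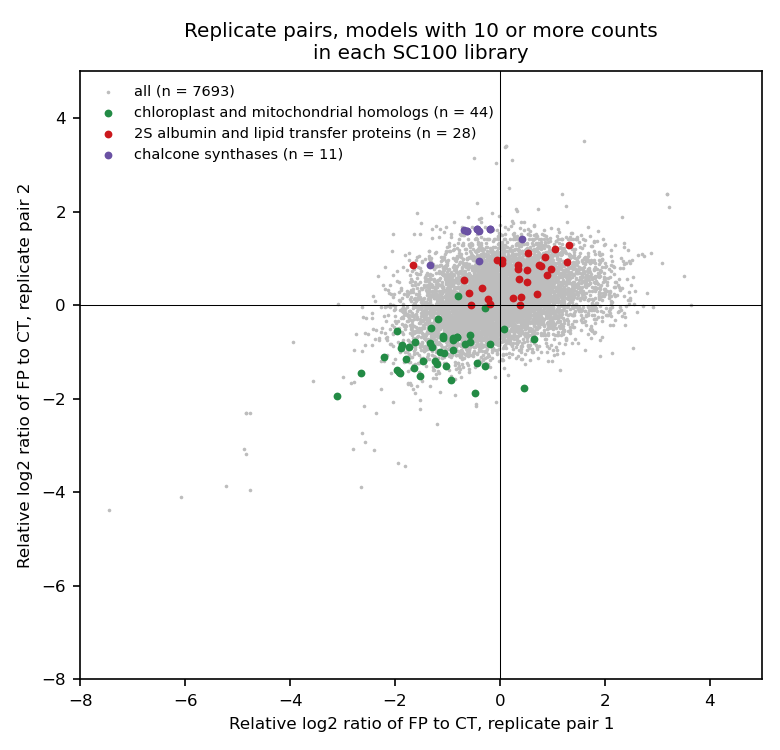
Relative log2 ratio of FP to CT in replicate pair 1 (horizontal axis) and pair 2 (vertical axis) for the 7693 models with 10 or more counts in each SC100 library (grey). Homologs of chloroplast and mitochondrial genes (green) lie mostly at lower left, 2S albumin and lipid transfer proteins (red) mostly at upper right, and chalcone synthases (purple) high in pair 2 only.

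In the quasi-likelihood test of edgeR, with p-values adjusted over all 49157 models, no primary model passed an adjusted p of 0.05 in either direction (0% of 26768; lowest adjusted p 0.394). An unadjusted p under 0.05 was reached by 935 models with FP above CT (3.49%) and 489 with FP below CT (1.83%). DESeq2 called 261 higher and 67 lower at an adjusted p under 0.05, and gave no adjusted p to 22939 of the 26768. With the replicate number as a block, which compares FP and CT libraries of the same number, edgeR called 379 models higher (1.42%) and 113 lower (0.422%). Of these, 304 of the 379 and 81 of the 113 had 10 or more counts in each library, and 36 of the 379 were at 0 in CT replicate 1. Without CT replicate 1 the test called 6 higher (0.0248% of 24217) and 68 lower (0.281%), and without CT replicate 2 it called 4230 and 1590. On library totals in place of TMM the median log2 ratio of the primary models was -1.32, and 0 were called higher and 1178 lower, so a call of a direction is relative to the scaling. The calls below are those of the blocked fit, which leaves 1 residual degree of freedom. Its variance for a model therefore leans on the other models, and its p-values do not measure how far the pairs of that model differ. Glyma.13G206000.1, for example, had relative ratios of -7.45 and -4.39 in the pairs. Its adjusted p in edgeR was 2.63e-30 with the block and 0.99 without it. A test of FP against CT asks whether the scaled ratio differs from 0 on the log2 scale, where TE is 0.352. Relative ratios and their standard errors are those of the fit without the block.

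Gene classes were built from the annotation of each model's best Arabidopsis match and from lists in the study, and 67 classes had 5 or more tested members. Several lists had been picked by TE in the cotyledon libraries of the same series. The chloroplast, mitochondrial and translation lists hold only models of very low TE there, and the albumin, protease, gibberellin and flavonoid lists only models of high TE. Their direction in the seed coat is therefore a repeat in other libraries of a pattern that chose the members, and not a neutral sample of such genes. A class is called above or below the middle when its median relative ratio was at least 0.25 from 0 and both pair medians had that sign. On this rule 20 classes were above, 9 below and 38 neither. With each of the 4 libraries left out in turn the median kept its sign in 27 of these 29 classes, but in 19 of them it moved by more than 1.5 times, and of all 67 classes 31 changed sign at least once. The medians of pair 1 and pair 2 had the same sign in 47 of the 67 classes. These are descriptions, without a test, to be read against the shares over all 26768 models, where 4.33% had a relative ratio over 1 in both pairs and 5.13% had one under -1 in both. Among the 7693 models with 10 or more counts in each library these shares were 1.57% and 1.53%. Class calls are those of the blocked fit, to be read against 1.42% of all models called higher and 0.422% called lower. Without CT replicate 1, when the test called only 6 models higher in all, the classes with a member called higher were class III peroxidases and aquaporins, with 1 each.

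**Figure D3:**
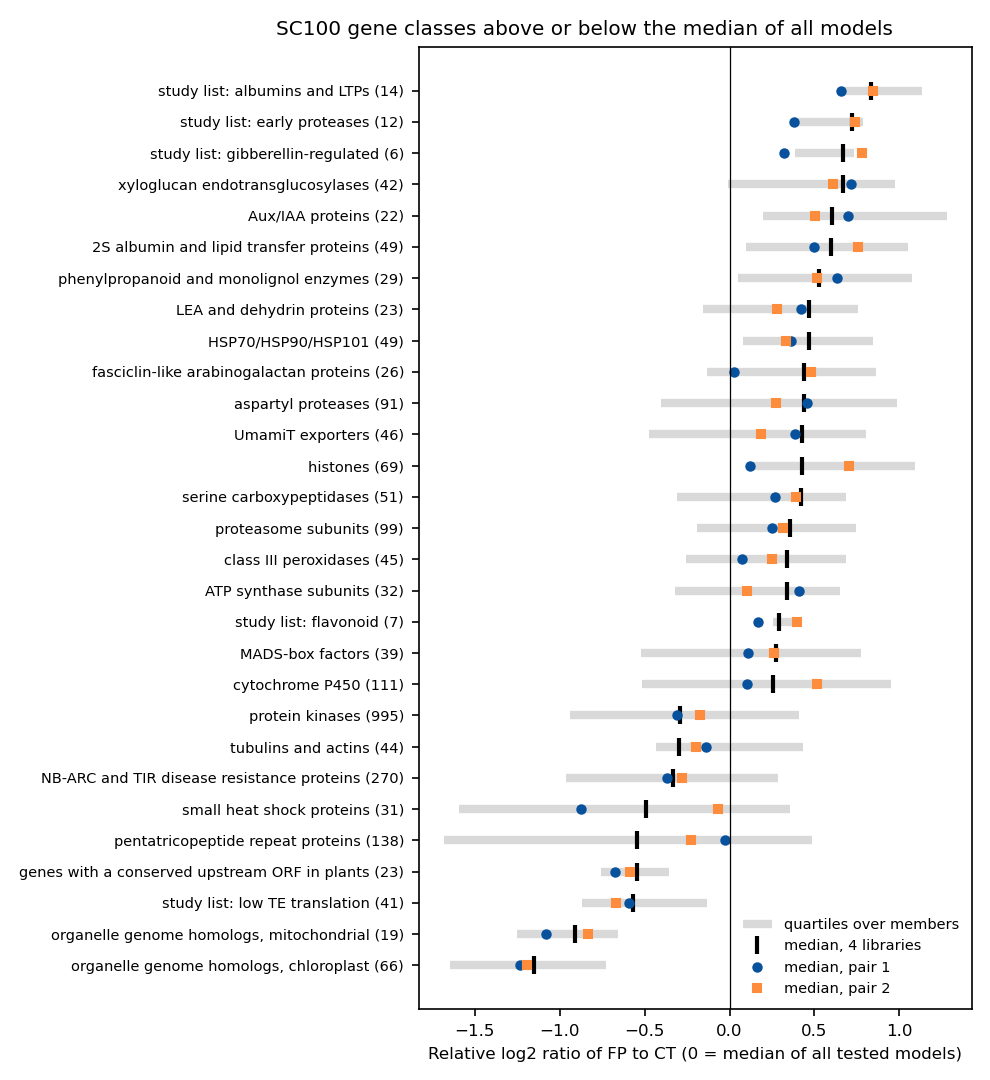
Median relative log2 ratio of FP to CT (horizontal axis) for the 20 classes above and the 9 below the middle of all models, with the number of tested members in brackets. Black ticks are the fit of 4 libraries, blue circles pair 1, orange squares pair 2, and grey bars run from the lower to the upper quartile over members. Both organelle classes lie lowest, at -1.15 and -0.91 in the fit of 4 libraries.

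The lowest class median was that of models that match genes of the chloroplast genome, all of them on the study's list of very low TE in cotyledons. Chloroplasts and mitochondria translate their own mRNAs on their own ribosomes, and pieces of their genomes also lie in the nucleus. Whether the reads counted on such models came from nuclear or organelle copies was not tested. Of the 67 chloroplast homologs 66 were tested, with a median relative ratio of -1.15 (-1.23 in pair 1, -1.19 in pair 2; quartiles -1.65 and -0.73) and a median TE of 0.174. The blocked fit called 12 of them lower (18.2%, against 0.422% of all models) and 0 higher. In 29 (43.9%, against 5.13%) the relative ratio was under -1 in both pairs, and in 52 it was negative in both. Summed over the 67 models, the level was 854 and 743 RPKM in FP and 3093 and 3806 RPKM in CT. With single libraries left out the median ran from -1.42 without CT replicate 1 to -0.78 without CT replicate 2, and without CT replicate 1 the test called 7 of the 66 lower.

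Individual chloroplast homologs followed this order with exceptions. Glyma.12G061600.1, which matches the large subunit of ribulose bisphosphate carboxylase, the carbon-fixing enzyme, had 2.20 and 5.85 RPKM in FP, against 34.3 and 79.4 RPKM in CT. With a relative ratio of -2.28 ± 0.67 (SE), it was called lower with the block (adjusted p = 2.64e-07). Glyma.09G144500.1, which matches a core protein of photosystem I, had 5.15 and 2.60 RPKM in FP and 58.8 and 37.8 RPKM in CT. Its relative ratio was -2.68 in pair 1 and -2.01 in pair 2 (adjusted p = 1.08e-04 with the block). For Glyma.12G061600.1 the relative ratio was -3.11 in pair 1 and -1.95 in pair 2, so both of these models were low in each pair. Glyma.20G045200.1, which matches Ycf2, a large plastid ATPase-like protein, had 31.3 and 36.3 RPKM in FP, against 212 and 185 RPKM in CT (adjusted p = 0.0117 with the block). Glyma.11G162200.1, the most abundant member and a match to the D1 protein of photosystem II, had 317 and 370 RPKM in FP and 954 and 1124 RPKM in CT. Its relative ratio was -0.79 in pair 1 and 0.19 in pair 2, so the pairs differed in sign and it was not called (adjusted p = 0.992 with the block).

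The 19 homologs of mitochondrial genes, also chosen for very low TE in cotyledons, behaved alike in both pairs. Their median relative ratio was -0.91 (-1.08 in pair 1, -0.83 in pair 2), all 19 had a fitted ratio below the middle, and 17 were negative in both pairs. The blocked fit called 5 lower (26.3%, against 0.422%), and the test without CT replicate 1 called 1. The median was -0.59 without CT replicate 2 and -1.27 without FP replicate 2. Cytochrome c oxidase subunit III of the respiratory chain (Glyma.12G155300.1) had 38.4 and 17.5 RPKM in FP, against 106 and 108 RPKM in CT, a TE of 0.261. It was not called (adjusted p = 0.513 with the block). A match to subunit 7 of NADH dehydrogenase (Glyma.15G188000.1) had 15.4 and 23.4 RPKM in FP, against 57.0 and 128 RPKM in CT. In both models every FP value lay below every CT value. The median TE over all tested models was 0.411, so this order alone does not mark a low occupancy. The share of all models with such an order was not counted.

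Other models of energy metabolism, those not on the study's organelle lists, were grouped by annotation. The 119 tested photosystem and light-harvesting models had a median relative ratio of 0.23 (0.14 in both pairs), which was -0.07 without FP replicate 1. With the block 2 were called higher (1.68%, against 1.42%) and 3 lower (2.52%, against 0.422%). The class also holds matches to proteins that plastid genomes encode, some of them low. Photosystem II reaction center protein A (Glyma.05G073600.1) had 51.2 and 38.2 RPKM in FP, against 250.04 and 307 RPKM in CT (relative ratio -1.26, adjusted p = 0.00300 with the block). Protein N of the same complex (Glyma.15G188400.1) had 6.21 and 4.64 RPKM in FP, against 45.3 and 69.3 RPKM in CT (adjusted p = 7.59e-05 with the block). In both the relative ratio was under -1 in both pairs. Respiratory complex I subunits (37 tested) had a median of -0.28, with pair medians of -0.07 and 0.08, and of 0.25 without CT replicate 1. ATP synthase subunits (32 tested) had a median of 0.34 (0.41 and 0.10; 0.11 without CT replicate 1). With the block, however, 0 were called higher and 2 lower (6.25%, against 0.422%). Their 3 most abundant members in CT were low, with relative ratios of -2.11, -0.83 and -1.02. The first of these, Glyma.19G257900.1, is annotated as the delta subunit that holds the stator of the enzyme. It had 369.9 and 298 RPKM in FP, against 4405 and 3216 RPKM in CT (TE 0.0876, adjusted p = 2.07e-04 with the block).

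The study's list of translation proteins with low TE, chosen by its authors on cotyledon libraries of the same series, was low in the seed coat as well. Of its 42 models 41 were tested, with a median of -0.57 (-0.59 in pair 1, -0.67 in pair 2; -0.34 without CT replicate 2), 1 called lower (2.44%, against 0.422%) and 0 higher with the block. Translationally controlled tumor protein (Glyma.09G044200.1), a growth-related protein with strong translational control in animals, had 18.9 and 14.1 RPKM in FP, against 55.5 and 71.2 RPKM in CT (TE 0.26, not called). Glyma.07G078300.1, an RNA-binding protein with RRM motifs, had 1.14 and 1.21 RPKM in FP and 12.3 and 18.9 RPKM in CT. It was called lower (relative ratio -2.31 ± 0.43, adjusted p = 1.47e-06 with the block), with -2.60 in pair 1 and -2.15 in pair 2.

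The translation machinery as a whole sat at the middle. The 327 tested proteins of the large ribosomal subunit had a median of 0.02 (-0.05 and -0.03 in the pairs), and the 170 of the small subunit had a median of -0.11 (-0.17 and -0.15). Of the large subunit 1 model was called higher (0.306%, against 1.42%) and 0 lower, and of the small subunit 0 higher and 1 lower (0.588%, against 0.422%). The called model, Glyma.04G079800.1 of the S5 family, had 268 and 259 RPKM in FP, against 1717 and 2540 RPKM in CT (adjusted p = 0.0181 with the block). Initiation factors (73 tested) had a median of 0.13, elongation factors (50) of 0.00 and aminoacyl-tRNA synthetases (70) of 0.09, all with pair medians within 0.27 of 0. Both ribosomal medians and those of the initiation and elongation factors changed sign with 1 library left out, within -0.17 to 0.14. Glyma.17G186600.1, a GTP-binding elongation factor of the Tu family, had 25.8 and 11.2 RPKM in FP and 58.9 and 51.02 RPKM in CT, a relative ratio of -0.29.

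Genes whose homologs carry a conserved upstream reading frame were low. This frame, which lies ahead of the main one, is known in Arabidopsis to hold ribosomes back. Of 36 such models 23 were tested, with a median of -0.55 (-0.68 in pair 1, -0.59 in pair 2; -0.31 without CT replicate 2), 20 of them below the middle and 17 negative in both pairs. None was called in the blocked fit in either direction, and 1 had an unadjusted p under 0.05 in the fit without the block. Adenosylmethionine decarboxylase, which feeds polyamine synthesis, had 6.29 and 4.46 RPKM in FP, against 15.6 and 27.0 RPKM in CT, for Glyma.01G071300.1. Another copy, Glyma.02G128000.1, had 5.78 and 3.82 RPKM in FP, against 19.9 and 21.1 RPKM in CT. The bZIP factor Glyma.11G114800.1, whose family carries a frame that responds to sucrose in Arabidopsis, had 4.22 and 2.47 RPKM in FP, against 16.9 and 12.9 RPKM in CT. In all 3 the relative ratio was negative in both pairs, from -1.20 to -0.51. Auxin response factors, which carry upstream frames in Arabidopsis too, were at the middle (40 tested, median 0.04, pair medians -0.06 and -0.11), with a median of -0.33 without FP replicate 2.

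Large families of signalling and defence genes were slightly low. The 995 tested protein kinases had a median of -0.29 (-0.31 and -0.18), with 4 called higher (0.402%, against 1.42%) and 1 lower (0.101%, against 0.422%). The 270 disease resistance proteins of the NB-ARC and TIR type, which sense pathogen effectors, had a median of -0.33 (-0.37 and -0.28; -0.13 without FP replicate 1), with 1 called higher (0.37%) and 2 lower (0.741%). Median CT levels were 0.717 and 0.705 RPKM in these classes, against 0.956 RPKM over all tested models. Pentatricopeptide repeat proteins, which bind organelle RNA, had a median of -0.54 over 138 models, but pair medians of only -0.03 and -0.23, and the median was -1.35 without CT replicate 2. Small heat shock proteins (31 tested) had a median of -0.49, which was 0.17 without CT replicate 1.

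Tubulins and actins, the cytoskeletal subunits, had a median of -0.30 over 44 models (-0.14 and -0.20), with 0 called higher and 2 lower with the block (4.55%, against 0.422%). Glyma.06G090500.1, an alpha tubulin, had 7.93 and 3.71 RPKM in FP, against 33.3 and 32.2 RPKM in CT (relative ratio -1.20 ± 0.30, adjusted p = 0.00749 with the block). Its relative ratio was alike in the pairs, -1.27 and -1.33. Another alpha tubulin, Glyma.17G156900.1, had 15.3 and 6.35 RPKM in FP and 36.1 and 29.1 RPKM in CT, a relative ratio of -0.31. The class median was 0.03 without FP replicate 2 and lay between -0.22 and -0.07 without each other library.

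Of the classes with both pair medians above 0, the highest was the study's list of 16 albumins and lipid transfer proteins, chosen for high TE in cotyledons. These small secreted proteins with a shared cysteine pattern include the 2S storage albumins and proteins that carry lipids to the cell surface. Of the 16, 14 were tested, with a median of 0.83 (0.66 in pair 1, 0.84 in pair 2) and a median TE of 0.744. All 14 lay above the middle, 13 in both pairs, and 7 were called higher with the block (50.0%, against 1.42% of all models). The wider class of 49 tested 2S albumin and lipid transfer models had a median of 0.60 (0.50 and 0.76), with the same number, 7, called higher (14.3%) and 0 lower. Without CT replicate 1 the medians were 1.10 and 0.69, and the test called none of these models.

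The members of this class were among the abundant mRNAs of the tissue. Glyma.01G132500.1, a lipid transfer protein, had 521 and 204 RPKM in FP, against 630.4 and 418 RPKM in CT. It had a relative ratio of 0.52 in pair 1 and 0.76 in pair 2, and it was not called (adjusted p = 0.138 with the block). Glyma.02G281400.1 had 259 and 131 RPKM in FP and 246 and 221 RPKM in CT, a TE of 0.836. It was called higher (relative ratio 1.05 ± 0.32, 0.87 and 1.04 in the pairs, adjusted p = 0.00325 with the block). In absolute RPKM its FP and CT libraries overlapped, so the call rests on the scaling that puts the middle model at a TE near 0.4.

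Proteases of early seed growth were also high. The study's list of 12 early proteases, again chosen on cotyledons, had a median of 0.72 (0.38 in pair 1, 0.74 in pair 2), with 5 called higher and 0 lower with the block (41.7%, against 1.42%) and 0 without CT replicate 1. Glyma.06G272700.1, a cysteine protease, had 87.2 and 66.7 RPKM in FP, against 63.1 and 84.1 RPKM in CT, a TE of 1.05. The relative ratio stood at 1.45 ± 0.33, with 1.26 and 1.45 in the pairs (adjusted p = 3.16e-06 with the block). Glyma.06G022600.1, a subtilisin-like serine protease and the most abundant of the list, had 373 and 166 RPKM in FP and 451 and 329 RPKM in CT. It had a relative ratio of 0.75 and was not called (adjusted p = 0.227 with the block). A serine carboxypeptidase, Glyma.09G249500.1, had 56.3 and 26.5 RPKM in FP, against 69.2 and 49.9 RPKM in CT, and was called higher (adjusted p = 0.046 with the block).

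The whole protease families were closer to the middle than that list. Serine carboxypeptidases had a median of 0.42 over 51 models, which was 0.12 without CT replicate 2, with 2 called higher (3.92%, against 1.42%). Aspartyl proteases had one of 0.44 over 91, with 3 called higher (3.30%). Both had positive pair medians and 0 called lower. Papain-type cysteine proteases had a median of -0.31 over 63 models, with pair medians of -0.46 and 0.20, although 5 were called higher (7.94%, against 1.42%). That median was -0.07 without CT replicate 1. Subtilisin-like proteases had a median of 0.00 over 61 models, between -0.28 and 0.44 with single libraries left out. Proteasome subunits, which degrade tagged proteins in the cytosol, had a median of 0.35 over 99 models (0.25 and 0.31), with 3 called higher (3.03%) and 0 lower.

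Cell wall genes of growing tissue were high for some families. Xyloglucan endotransglucosylases, which cut and rejoin the xyloglucan chains of the wall, had a median of 0.67 over 42 models (0.72 in pair 1, 0.61 in pair 2), and 4 were called higher and 0 lower (9.52%, against 1.42%), with none called without CT replicate 1. Glyma.13G103100.1, the most abundant of them, had 22.5 and 14.6 RPKM in FP, against 26.2 and 41.3 RPKM in CT (relative ratio 0.49, not called). Glyma.17G065100.1 had 15.6 and 9.15 RPKM in FP and 16.9 and 20.9 RPKM in CT, with a relative ratio of 0.68 in pair 1 and 0.60 in pair 2. It too missed the threshold (adjusted p = 0.0871 with the block). In both models the highest FP value lay below the lowest CT value, so their standing is relative to the middle of all models.

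Fasciclin-like arabinogalactan proteins, surface glycoproteins, had a class median of 0.44 over 26 models, but the pair medians were 0.03 and 0.48, it was 0.17 without CT replicate 2, and the 2 most abundant members were low. Glyma.14G005300.1 had 32.8 and 13.5 RPKM in FP, against 90.01 and 85.2 RPKM in CT, a relative ratio of -0.65. Cellulose synthases (42 tested), which spin the cellulose of the wall, had a median of -0.17 (0.08 without CT replicate 2) and none was called. Pectin enzymes (93 tested) had a median of 0.17 (-0.01 without either FP replicate 1 or CT replicate 2), with 2 called higher (2.15%). Their most abundant member, the pectin acetylesterase Glyma.16G107500.1, had 276 and 180 RPKM in FP and 307 and 460.3 RPKM in CT (relative ratio 0.60, not called).

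Gibberellin-regulated proteins of the study's list, 6 small cysteine-rich peptides of high TE in cotyledons, had a median of 0.67 (0.32 and 0.78). Of the 6, 1 was called higher (16.7%, against 1.42%). The median was 0.43 without CT replicate 2 and 1.08 without CT replicate 1. Glyma.04G024400.1 had 67.8 and 22.9 RPKM in FP and 81.2 and 46.4 RPKM in CT, and just missed the threshold (adjusted p = 0.0509 with the block). The full family was nearer to the middle (24 tested, median 0.17, but 0.56 without CT replicate 1). Aux/IAA proteins, short-lived repressors of the auxin response, had a median of 0.60 over 22 models (0.70 and 0.51; 1.02 without CT replicate 2), with 2 called higher and 0 lower (9.09%, against 1.42%). Glyma.15G012700.1 had 11.8 and 5.397 RPKM in FP, against 6.36 and 12.5 RPKM in CT (adjusted p = 0.00318 with the block). Glyma.07G034200.1, a match to IAA19, had 2.79 and 2.04 RPKM in FP and 0.186 and 2.21 RPKM in CT. This gave a relative ratio of 2.39 over the 4 libraries and 1.53 without CT replicate 1, in which it had only 2 counts.

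Among chaperones, models of HSP70, HSP90 and HSP101 had a median of 0.47 over 49 (0.36 and 0.33), with 2 called higher (4.08%, against 1.42%) and 0 lower. The HSP70 Glyma.12G064000.1 had 23.3 and 13.2 RPKM in FP, against 25.2 and 23.8 RPKM in CT, and was called higher (adjusted p = 0.0101 with the block). Histones, which package DNA, had a median of 0.42 over 69 models (0.12 and 0.71), with 5 called higher (7.25%, against 1.42%) and 1 lower (1.45%, against 0.422%). The histone median was 0.20 without CT replicate 2 and 0.76 without CT replicate 1. MADS-box factors had a median of 0.27 over 39 models, which was 0.02 without FP replicate 1, with 2 called higher (5.13%). Glyma.06G324400.1, the most abundant of them in CT, had 17.9 and 7.73 RPKM in FP and 28.7 and 20.9 RPKM in CT, a relative ratio of 0.33.

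Transport and sugar use, the main tasks of the seed coat, gave medians from 0.09 to 0.43 in the classes given here. UmamiT exporters, a family that includes amino acid exporters, had a median of 0.43 over 46 models (0.39 and 0.19; 0.20 without FP replicate 1), with 2 called higher (4.35%, against 1.42%). Of the 46 UmamiT models, 8 had a relative ratio over 1 in both pairs (17.4%, against 4.33% of all models). None had one under -1 in both. SWEET and sucrose transporters (26 tested) had a median of 0.25, which was -0.04 without either CT replicate, with none called. Aquaporins (41 tested) had a median of 0.24 with 2 called higher (4.88%). Sucrose synthases and invertases, which split the sucrose that arrives, had a median of 0.09 over 21 models (-0.07 without CT replicate 2, 0.51 without CT replicate 1), but their abundant members were high. Sucrose synthase Glyma.15G182600.1 had 27.3 and 16.3 RPKM in FP, against 29.2 and 34.0 RPKM in CT (relative ratio 0.80 ± 0.31, adjusted p = 0.0317 with the block). Another sucrose synthase, Glyma.13G114000.1, had 30.7 and 15.4 RPKM in FP and 43.7 and 38.5 RPKM in CT and was not called (relative ratio 0.47). Of the 21 models 3 were called higher (14.3%, against 1.42%) and 0 lower.

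Phenolic metabolism is described by enzyme group. Phenylpropanoid and monolignol enzymes, which make lignin precursors, had a median of 0.53 over 29 models (0.63 and 0.52), with 1 called higher (3.45%, against 1.42%). Single members agreed less, as 13 of the 29 had the same sign in both pairs (44.8%, against 56.3% of all models). For the 16 with 10 or more counts in each library the median was 0.23, relative to all models of that depth. Cinnamate 4-hydroxylase, an early step (Glyma.02G236500.1), had 6.67 and 3.05 RPKM in FP, against 6.56 and 6.90 RPKM in CT (relative ratio 0.82, adjusted p = 0.094 with the block). Peroxidases of class III, which cross-link wall phenolics, had a median of 0.34 over 45 models (0.07 and 0.25; 0.53 without FP replicate 1). Their most abundant member, Glyma.13G167100.1, was far below the class, with 950.4 and 671 RPKM in FP and 4909 and 7713 RPKM in CT. Its TE was 0.128 and its relative ratio -1.57 and -1.74 in the pairs, and it just missed the threshold (adjusted p = 0.0584 with the block).

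Chalcone synthases, the first committed enzymes of flavonoid synthesis, differed more between replicates than between FP and CT. The 16 tested models summed to 13.2 and 257 RPKM in FP replicates 1 and 2, and to 29.7 and 340 RPKM in CT replicates 1 and 2. Replicate 2 was thus 19.4 times replicate 1 in FP and 11.5 times in CT, and it was the higher library for all 16 models in both kinds of library. For Glyma.01G228700.1, the most abundant, FP had 1.49 and 36.7 RPKM and CT had 3.47 and 65.9 RPKM. The relative ratio of the 16 had a median of -0.40 in pair 1 and 1.58 in pair 2, so that the pairs differed in sign. The blocked fit called 7 of the 16 higher, where it called 1.42% of all models higher. The fit without a block had 0 of them at an unadjusted p under 0.05. Without CT replicate 1 their median relative ratio was 0.66. The median standard error of their log2 ratio was 1.33. These models are near-identical copies that share reads, so that they are not 16 independent measurements.

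**Figure D4:**
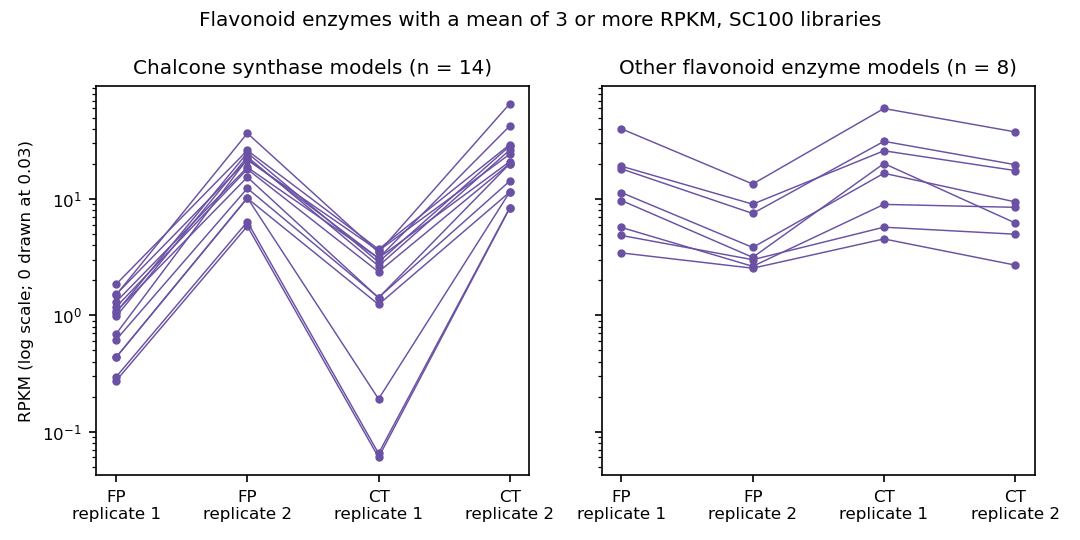
RPKM (vertical axis, log scale) of flavonoid enzyme models with a mean of 3 or more RPKM in the 2 FP and 2 CT libraries of SC100; each line is 1 model. All chalcone synthases on the left are higher in replicate 2 of both FP and CT, which the other flavonoid enzymes on the right are not.

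The other flavonoid enzymes did not share this difference. The 20 other tested models summed to 122.6 and 51.4 RPKM in FP and 201 and 122 RPKM in CT, and replicate 2 was the higher library for 4 of 20 in FP and 3 of 20 in CT. Their relative ratio had a median of 0.27 (0.05 in pair 1, 0.44 in pair 2). Flavanone 3-hydroxylase, a middle step (Glyma.02G048400.1), had 40.04 and 13.4 RPKM in FP, against 59.9 and 37.7 RPKM in CT, and dihydroflavonol 4-reductase (Glyma.14G072700.1), which leads to anthocyanins, had 19.1 and 9.01 RPKM in FP and 25.9 and 17.5 RPKM in CT. Neither was called. At the SC25 stage the 16 chalcone synthases summed to 24.3 and 166 RPKM in FP and 76.3 and 359.7 RPKM in CT, again with replicate 2 higher.

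The annotated models with the largest differences in the blocked fit are given next, 10 in each direction, among those called, of one direction in both pairs, and with at least 1 RPKM in both FP libraries (higher) or 10 RPKM in both CT libraries (lower). On the low side their relative ratios ran from -5.10 to -1.68. On the high side most had few counts. The cysteine protease Glyma.12G130300.1 had 4.27 and 4.57 RPKM in FP, against 0 and 4.24 RPKM in CT (counts of 33 and 35 in FP, 0 and 25 in CT). Its relative ratio was 1.53 without CT replicate 1. The same pattern, 0 counts in CT replicate 1 and 8, 16 and 24 in CT replicate 2, was found for Glyma.20G130000.1 (a secreted protein), Glyma.20G131100.1 (gibberellin-regulated) and Glyma.09G184500.1 (a subunit of complex I). For these no fold is given. Glyma.07G264200.1, a match to the ethylene-forming enzyme, the last step of ethylene synthesis, had counts in all libraries. It had 3.80 and 1.42 RPKM in FP, against 0.673 and 1.12 RPKM in CT, a relative ratio of 2.80 ± 0.50 (adjusted p = 4.11e-05 with the block), and both FP libraries lay above both CT libraries. The abundant models Glyma.02G284600.1, a match to phytoene desaturation 1, and Glyma.06G013000.1, a match to a GTP-binding protein, belong together. They had 2388556 and 2388529 counts in FP replicate 1, 263175 and 263167 in FP replicate 2, and differed by under 1% in CT. The authors kept reads that aligned to up to 25 models, and counts this alike on unrelated annotations cannot be assigned to either gene, so they are given here as 1 signal.

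The models on the low side had higher levels in CT, as the rule asks. The PPR model Glyma.13G206000.1 had 24.2 and 127 RPKM in FP, against 7397 and 9198 RPKM in CT, a TE of 0.00913 (adjusted p = 2.63e-30 with the block). Its CT level was far above the median of 0.294 RPKM over the 138 tested PPR models. Whether the reads on this and the other very abundant models, here and above, came from the annotated genes was not tested. A WD40 repeat protein, Glyma.19G209200.1, had 87.97 and 53.7 RPKM in FP, against 5685 and 2718 RPKM in CT, a TE of 0.0169. A CCHC zinc knuckle protein, Glyma.19G256500.1, had 30.3 and 18.5 RPKM in FP and 1427 and 984 RPKM in CT, and it was the model with the lowest adjusted p (0.394) in the fit without the block. Glyma.08G188800.1, a match to a cleavage and polyadenylation factor, had 95.3 and 31.7 RPKM in FP, against 988 and 837 RPKM in CT. The relative ratios of these 4 in the single pairs ran from -7.45 to -2.58. Of the 10, 3 matched chloroplast genes, including Glyma.16G115200.1, a subunit of the chloroplast ATP synthase, with 0.462 and 0.930 RPKM in FP and 15.7 and 11.2 RPKM in CT.

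The most abundant models were largely without annotation. Glyma.01G139400.1, a model of 192 bases, had the highest mean RPKM in both kinds of library, though not the highest counts. It had 405061 and 1393599 counts in FP, against 589966 and 350712 counts in CT. Its relative ratio was 0.12 in pair 1 and 3.399 in pair 2, so the pairs differed by far more than for most models. Glyma.12G036300.1 had a TE of 0.0325 and was called lower (relative ratio -4.84 and -2.32 in the pairs, adjusted p = 2.51e-11 with the block). Glyma.04G242600.1 had a relative ratio of 2.36 in the fit of 4 libraries, but -0.50 in pair 1 and 3.14 in pair 2.

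A high TE (over 1, with at least 1 RPKM in FP and an unadjusted p under 0.05) was found for 144 models, 0.538% of those tested and 2.56% of the 5620 with 1 RPKM in FP. Their median TE was 1.17. The highest, 5.51, was that of Glyma.12G047600.1, which had 0 RPKM in CT replicate 1 and a TE of 1.39 in pair 2. Of the 144, 7 were at 0 in CT replicate 1. Of the 144, 124 had an annotation and 125 had under 10 RPKM in FP. A TE over 1 was seen in pair 1 for 141 of them, in pair 2 for 19 and in both for 16. Thus this list was mainly decided by pair 1. A very low TE (0.1 or less, with at least 10 RPKM in CT and an unadjusted p under 0.05) was found for 44 models, 0.164% of those tested and 4.09% of the 1077 with 10 RPKM in CT. It held in both pairs for 30 of them. No member is independent of the values that chose it, so these counts carry no test.

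The list of very low TE held many short models and many models of no known match. The median length of the 44 was 316.5 bases, and 31 were under 500 bases, as were 2.72% of all tested models. Of the 44, 24 had no Arabidopsis match (54.5%, against 11.8% of all tested models) and 7 matched chloroplast genes (15.9%, against 0.247%). The list required 10 RPKM in CT, and the shares among the 1077 models at that level were not computed. Chloroplast homologs had a median CT of 12.4 RPKM, against 0.956 RPKM over all tested models. The part of this filter in the shares was not tested. The lowest TE was that of Glyma.15G239000.1, a match to plastid ribosomal protein L33, with 0 counts in both FP libraries and 15.96 and 10.6 RPKM in CT. A floor of 3 counts in each FP library allows up to 1.28 and 1.29 RPKM, which makes FP at least 10.3-fold lower than the CT mean of 13.3 RPKM. Such floors cover counting error only. Length also went with the ratio among all tested models. Those under 500 bases had a median relative ratio of -0.48, but -0.65 in pair 1 and only -0.03 in pair 2. Those of 500 to 1000 bases had one of 0.18 (0.16 and 0.25 in the pairs), and those over 3000 bases one of -0.25 (-0.30 and -0.21). The part of length in the class medians was not tested.

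The class medians were also computed in the early seed coat. The medians of SC100 and SC25 had the same sign in 50 of 67 classes, and chloroplast and mitochondrial homologs were lowest or near it at SC25 too, with medians of -1.27 and -1.10. The study's albumin and lipid transfer list had a median of 0.83 at SC100 and 0.60 at SC25. The difference between the stages was tested in a fit of 8 libraries. No primary model passed an adjusted p of 0.05 in edgeR (0 higher, 0 lower; 0 and 0 in DESeq2), and an unadjusted p under 0.05 was reached by 365 of the 26768 models with a higher ratio at SC100 (1.36%) and 86 with a lower one (0.321%). With the block 4 were called higher and 2 lower.

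**Figure D5:**
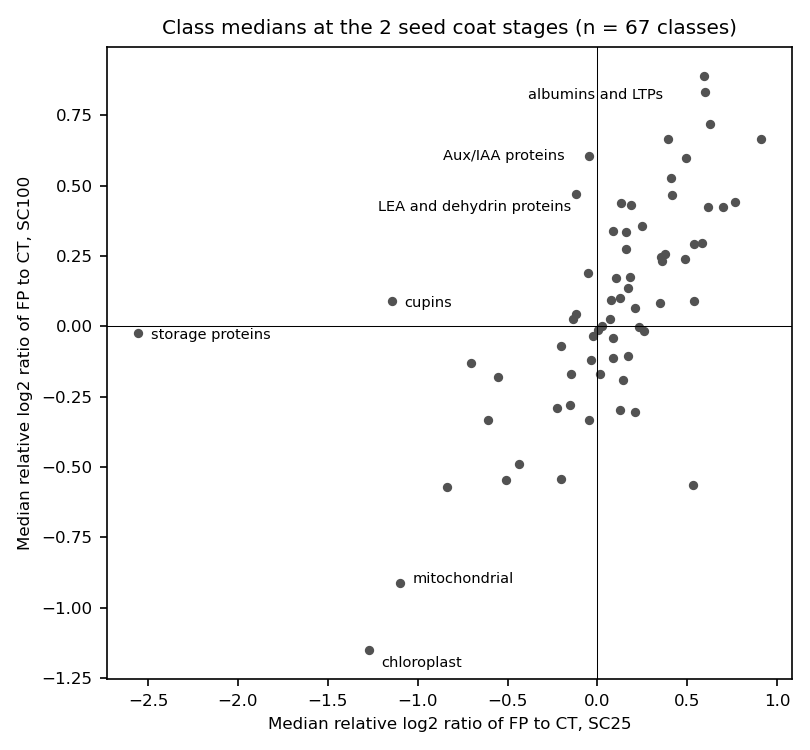
Median relative log2 ratio of FP to CT of each class at SC100 (vertical axis) and SC25 (horizontal axis); each point is 1 of 67 classes. Storage proteins lie far to the left, with -0.02 at SC100 and -2.55 at SC25.

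Storage proteins had the widest gap between the stage medians among the 67 classes. These globulins and related proteins fill the cotyledon, and the study's 19 models had a median relative ratio of -0.02 at SC100 (0.19 in pair 1, -0.63 in pair 2), and the 18 of them tested at SC25 had one of -2.55 there (-3.27 and 0.93 in the pairs). In the edgeR test of the difference, 11 of 19 had an unadjusted p under 0.05 with a higher ratio at SC100, and 0 with a lower one. Over all models these shares were 1.36% and 0.321%. None of the 19 had an adjusted p under 0.05. Their sum was 184 and 75.1 RPKM in SC100 FP and 291.7 and 381 RPKM in SC100 CT. At SC25 it was 34.0 and 11.8 RPKM in FP and 398 and 22.6 RPKM in CT, so SC25 CT replicate 1 had a level far above the other SC25 libraries. Without that library the median difference between the stages, relative to all models, was -1.64 in place of 2.18. Glyma.20G148300.1, a cupin family protein of this list, had 37.5 and 16.5 RPKM in SC100 FP, against 56.9 and 74.3 RPKM in SC100 CT, a TE of 0.411, the same as that of the middle model.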

How the data were processed

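Footprint (FP) and control (CT) libraries came from the same ground seed tissue, per the study's methods. The authors aligned reads with Bowtie version 1 to soybean cDNA models without mismatches, kept reads with up to 25 alignments, removed ribosomal RNA models, and deposited whole-number counts per model. Near-identical genes therefore share counts. No column of other samples was present (0), and 2 cotyledon FP libraries of the series were not analysed here.

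Counts were tested with edgeR 4.0.16 (R 4.3.3; TMM, quasi-likelihood, Benjamini-Hochberg over all models tested) and, as an alternative, DESeq2 1.42.0, after a minimum of 10 counts summed over the 4 libraries. The fit was checked on simulated counts. Pair ratios used 0.5 added counts. Python 3.11.15 with pandas 2.3.3 and numpy 2.4.6 made the summaries, and matplotlib 3.10.9 drew the figures. RPKM used model lengths and library totals. No genome positions or sequences are given, since 0 model names matched the reference gene table.

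Same-numbered FP and CT libraries were taken to come from the same tissue powder, as the study's methods describe. The labels give only the replicate number, and the study reports cotyledon libraries only, so this pairing of the seed coat libraries is an assumption. Deviations from the group means correlated between same-numbered libraries with r = 0.11 over all primary models tested and r = 0.21 over those with 10 or more counts in each library.

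Lists taken from the study rest on its TE values in cotyledons, except that of storage proteins. The members, lists and classes were chosen with earlier results of these data known, the class patterns were corrected after the matched annotations and medians were seen, and the class limit of 0.25 was set after seeing the data. Named models were the 3 with the highest CT RPKM in each class, the 5 highest in FP and in CT, and the 10 most changed annotated models in each direction with an adjusted p under 0.05, the same direction in both pairs and at least 1 RPKM in both FP (higher) or 10 RPKM in both CT libraries (lower). No model met the last criterion without the block, so the blocked fit was used for it. Glyma.15G239000.1 and Glyma.15G188400.1 were chosen after their values were seen. Alternatives were other scalings, filters, the replicate block and leaving out each library.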

Additional observations from a re-analysis of the deposited data

Results flagged for a closer look

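In 6 classes both replicate pairs of SC100 had a median relative log2 ratio on one side of 0 and both pairs of SC25 on the other. The difference was not tested for any of them. The SC100 median minus the SC25 median was 0.65 for Aux/IAA proteins (22 models), 0.59 for LEA and dehydrin proteins (23) and 0.24 for NAC factors (87). It was -0.33 for SAUR proteins (15), -0.28 for MYB factors (107) and -0.047 for proteins of the large ribosomal subunit (327).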

How the results depend on the processing

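The count of models called for FP against CT depended on the processing. It was 0 higher and 0 lower in edgeR without a block, 379 and 113 with the replicate block, 261 and 67 with DESeq2 (22939 of 26768 without an adjusted p), 67 and 58 with no filter on counts, 0 and 1178 on library totals, and 0 and 2 with 10 counts in every library. Leaving out a library gave 0 to 4230 higher and 0 to 1590 lower, the highest without CT replicate 2. For the difference between stages it gave 0 to 161 higher and 0 to 13 lower, against 4 and 2 with the replicate block and 4 and 1 with no filter.

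High TE held 144 models and very low TE 44. With no p criterion high TE held 387, with an adjusted p 0, as did very low TE, and with the criteria met in each pair 13 and 26. High TE held 911 and very low TE 9 on TMM sizes, and high TE 935 on totals without the 1% most abundant models and 285 with the replicate block. Leaving out a library gave 130 to 1024 and 34 to 78.

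Classes at least 0.25 above the middle numbered 22 (19 to 30 without a library), and those below 13 (8 to 16). With each of the 4 libraries left out in turn, 31 of the 67 class medians and the ratios of 59 of 207 named models changed sign at least once. Among the 29 classes above or below the middle and the models with an unadjusted p under 0.05, 3 did: small heat shock proteins (0.17 without CT replicate 1, range -0.88 to 0.17), tubulins and actins (0.032 without FP replicate 2, range -0.22 to 0.032) and Glyma.04G242600.1 (-0.36 without FP replicate 2, range -0.36 to 3.35), each range over the 4 libraries left out in turn. The cause was not tested. Same-sign pairs were 56.3% of all models and 62.7% with 10 counts in every library, a choice made after seeing the data, as were the storage protein settings.

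Footprints per kilobase of coding sequence were not run. With 2 replicates a group and most models at few counts, depth limited single models, and the block leaves 1 residual degree of freedom.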
